A study of Macaca fascicularis with 3 samples.

Results

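The miR-23/27/24 clusters are a pair of short genomic clusters that each give rise to a miR-23, a miR-27 and a miR-24, and their mature miRNAs were measured by small RNA sequencing in kidney cortex of cynomolgus monkeys (Macaca fascicularis). The members were all rows of the raw count table named for miR-23a, miR-23b, miR-27a, miR-27b or miR-24, whatever the arm, a choice by name. They numbered 9 of the 432 listed mature miRNAs (mfa-miR-23a-3p, mfa-miR-23b-3p, mfa-miR-23b-5p and so on, named below without the species prefix). The study sequenced frozen cortex, the outer kidney layer with the glomeruli and most proximal tubules, from 3 naïve animals aged 2 to 3 years, giving 1 library each. They form 1 untreated group with no other property by which the labels tell the animals apart. The comparisons are therefore between miRNAs and between animals.

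A miRNA is cut from a hairpin in a longer primary transcript, and each hairpin can yield a mature miRNA from its 5p arm and another from its 3p arm. Target choice rests mainly on the seed near the 5′ end of the mature miRNA. The clusters arose by duplication: miR-23a, miR-27a and a copy of miR-24 form one, and miR-23b, miR-27b and the other copy of miR-24 form the other, which in human lies in an intron of the aminopeptidase gene AOPEP. The mature 3p miRNAs of copies a and b are near-identical, and both copies of miR-24 give the same mature 3p miRNA. The clusters are known for high expression in endothelial cells and for a role in vessel growth. miR-23a and miR-23b are known to repress glutaminase, miR-27 to repress the adipocyte regulator PPARG, and miR-24 to repress cell cycle regulators and to act in renal ischaemia-reperfusion injury.

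Depth was similar across the series, with 4305977, 4707892 and 3957188 counts on listed miRNAs for animals 1, 2 and 3. Animal 3 stood apart from the other two. Levels were set side by side as CPM, the counts per 1000000 listed counts and were scaled between libraries by the trimmed mean of M values (TMM) where animals are compared. The log2 deviation of a library is its log2(TMM-scaled CPM + 1) minus the mean of the other two. The 391 miRNAs averaging 10 or more counts were tested. Their number with a deviation no higher than -1 was 66 in animal 3, 21 in animal 1 and 7 in animal 2. Results below are therefore also given without animal 3. The kidney markers miR-204, miR-192, miR-215 and miR-194 took 5.31% to 6.20% of the counts and the vessel markers miR-126, miR-143 and miR-145 7.17% to 8.52%. Most of the kidney share came from miR-204-5p, with a mean of 48124 CPM. In animal 3 the rarer miR-204-3p, with a mean of 72.9 CPM, had a log2 deviation of -4.10. The other kidney names lay between -0.35 and 0.30 there. Markers of red cells took 0.437% to 0.576%, of leucocytes 0.152% to 0.173%, of muscle 0.0363% to 0.0562%, of neurons 0.0107% to 0.0131% and of liver 0.000404% to 0.000882%.

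Together the 9 members took 4.98% ± 1.51 (SD, n = 3) of the listed counts. Animal 1 had 5.96%, with Wilson 95% bounds of 5.94 and 5.99, and animal 2 had 5.75%, with bounds of 5.73 and 5.77. Animal 3 had 3.24%, with bounds of 3.22 and 3.26. Animals 1 and 2 were thus close and animal 3 lay below both. The lower share of animal 3 lay in the miR-23 names. These took 2.86% and 3.13% of the counts in animals 1 and 2 and 0.530% in animal 3. The 6 names of miR-27 and miR-24 together took 3.10%, 2.61% and 2.71% in animals 1, 2 and 3, so that animal 3 lay between the other two. In bulk tissue fewer cells of a type and less RNA per cell cannot be told apart. The vessel markers summed to 7.81%, 7.17% and 8.52% in animals 1, 2 and 3, but did not move together. miR-145-5p was highest in animal 3, with log2 deviations of -0.71, -0.16 and 0.86. miR-126 and miR-143-3p were highest in animal 1 and lay at 0.00 and 0.08 in animal 3. Of the rarer arms, miR-145-3p lay at -0.09 in animal 3 and miR-143-5p, with a mean of 16.1 CPM, at 4.31. Of the 5 epithelial markers 3 were found (miR-200a, miR-200c and miR-429). They summed to 2.09%, 2.07% and 1.63% in animals 1, 2 and 3, but did not move together either. In animal 3 the log2 deviation was -0.22 for miR-200a-3p, -0.21 for miR-429-3p and -0.73 for miR-200c-3p. That of miR-200a-5p was 0.83. The part of either list in the result was not tested.

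**Figure D1:**
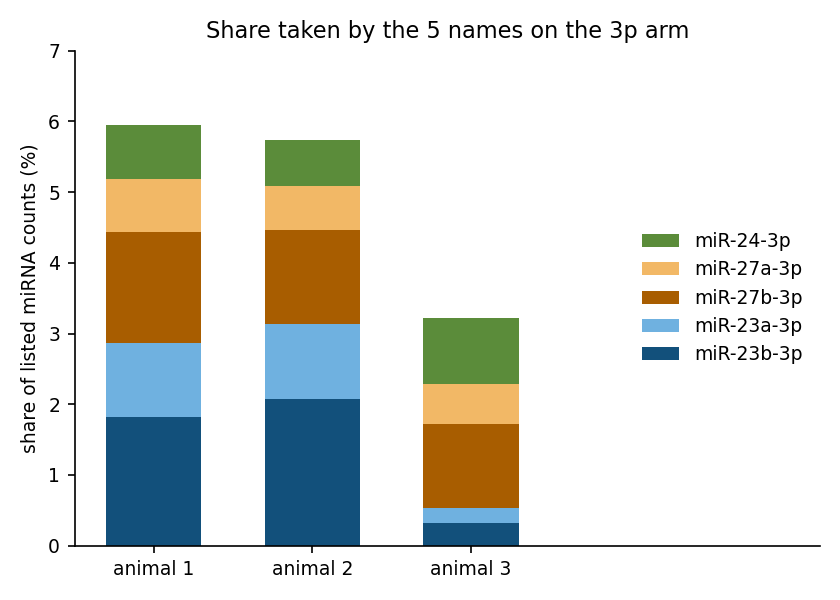
Share of listed miRNA counts (%, vertical axis) taken by the 5 names on the 3p arm in each animal, as stacked bars without error bars. The blue blocks of miR-23a-3p and miR-23b-3p are small in animal 3, at 0.207% and 0.321%, while the block of miR-24-3p is at its largest there, at 0.938%.

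Nearly all of these counts came from the 3p arms, which made 99.6% ± 0.145 (SD, n = 3) of the counts of the set. miR-23b-3p had the highest mean, 14031 CPM ± 9453 (SD, n = 3), and ranked 20th of the 432 names. miR-27b-3p followed with 13711 CPM ± 1962 and miR-24-3p with 7860 CPM ± 1440. miR-23a-3p had 7709 CPM ± 4880 and miR-27a-3p 6371 CPM ± 892. Below a wide gap came the 5p arms, led by miR-24-5p with 118 CPM ± 22.9. miR-27b-5p had 26.4 CPM ± 3.13, miR-23b-5p 12.3 CPM ± 3.71 and miR-27a-5p 5.09 CPM ± 2.89. No 5p name of miR-23a was among the rows analysed here.

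**Figure D2:**
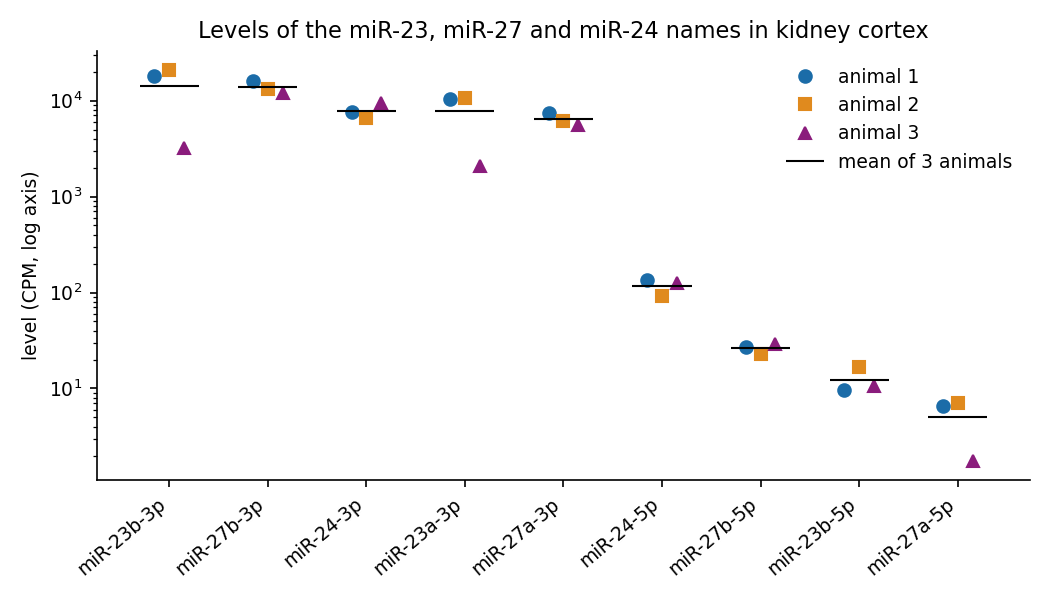
Level of each of the 9 names (CPM, log axis) in animals 1, 2 and 3 as separate symbols, with a line at the mean. The lowest 3p value is 2074 CPM and the highest 5p value 135.4 CPM, and the triangle of animal 3 lies far below the other symbols for miR-23b-3p, miR-23a-3p and miR-27a-5p.

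Of the 8 neighbouring pairs in this order, 5 kept their order in all 3 animals. The order was itself taken from the mean CPM of these 3 libraries, so no direction was set in advance. These were miR-27b-3p above miR-24-3p and each step from miR-27a-3p down to miR-27a-5p. An exact permutation test that flips the signs of the 3 within-animal differences (two-sided) gave a p of 0.25 for each of the 5, the smallest that 3 animals allow, and 0.4 after Benjamini-Hochberg adjustment over the 8 pairs. The step from miR-27a-3p to miR-24-5p was the largest, a mean log2 difference of 5.77 ± 0.29 (SD). The 3 pairs that involve a miR-23 3p name changed order in animal 3. miR-23b-3p, for example, exceeded miR-27b-3p in animals 1 and 2 and lay below it in animal 3. Without animal 3, all 8 neighbouring pairs kept 1 order in the 2 remaining animals.

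Among the 9 members the miR-23 guides showed the widest differences between animals. miR-23b-3p had 78233, 97506 and 12721 counts in animals 1, 2 and 3, or 18168, 20711 and 3215 CPM. It ranked 17th and 16th of all names in animals 1 and 2 and 45th in animal 3. On the TMM scale the library of animal 3 lay 5.50-fold below the other two, a log2 deviation of -2.46 with a counting error of 0.0133. miR-23a-3p had 44946, 49971 and 8209 counts, or 10438, 10614 and 2074 CPM. Its library in animal 3 lay 4.63-fold below the other two, a log2 deviation of -2.21 with a counting error of 0.0166. For both names animals 1 and 2 were close, with a span between them of 1.096-fold for miR-23b-3p and 1.023-fold for miR-23a-3p. The counting errors cover read sampling only.

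miR-23b-5p, cut from the other arm of the miR-23b hairpin, did not share this pattern. It had 42, 78 and 42 counts in animals 1, 2 and 3, or 9.75, 16.6 and 10.6 CPM. Animal 2 was the high one, and animal 3 lay at a log2 deviation of -0.12 with a counting error of 0.262. Its difference between libraries passed the chi-square test described below with a Benjamini-Hochberg adjusted p of 0.0304. With DESeq2 size factors in place of TMM the adjusted p was 0.0513, and over the alternatives it ranged from 0.00912 to 0.39.

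The miR-27 guides were among the steadier names. miR-27b-3p had 68131, 62925 and 47268 counts in animals 1, 2 and 3, or 15822, 13366 and 11945 CPM. After TMM scaling animal 1 was highest and animals 2 and 3 were level, at 12706 and 12702 CPM. miR-27a-3p had 31701, 28790 and 22296 counts, or 7362, 6115 and 5634 CPM. It was again highest in animal 1, and on the TMM scale animal 2 was lowest, whereas with library totals animal 3 was lowest. The spans over the 3 animals were 1.23-fold for miR-27b-3p and 1.25-fold for miR-27a-3p. In the order of the SD of log2 levels these names stood at percentiles 14.8 and 16.4 of the 391 miRNAs, against 94.6 for miR-23b-3p and 92.1 for miR-23a-3p.

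The rarer arms of the miR-27 hairpins differed from each other. miR-27b-5p had 117, 108 and 115 counts in animals 1, 2 and 3, a span of 1.42-fold on the TMM scale. miR-27a-5p had 28, 33 and 7 counts, or 6.50, 7.01 and 1.77 CPM. Animals 1 and 2 overlapped in their Wilson 95% intervals, at 4.50 to 9.40 and 4.99 to 9.84 CPM, while the interval of animal 3 was 0.857 to 3.65 CPM. The log2 deviation of animal 3 was -1.39, which the 1 added before the log makes smaller in size at this low level. Its counting error, 0.576, was computed from the counts without that 1. The adjusted p of the chi-square test with Benjamini-Hochberg adjustment was 0.00525. Without animal 3 the adjusted p was 0.921, and over the other alternatives it ranged from 0.00195 to 0.00746. For miR-27b-5p the adjusted p was 0.0401, and 0.214 when libraries were scaled by their totals alone, the highest over alternatives that ranged down to 0.0148.

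miR-24, the member shared by both clusters, was highest in animal 3 on its 3p arm. miR-24-3p had 33053, 30695 and 37131 counts in animals 1, 2 and 3, or 7676, 6520 and 9383 CPM. On the TMM scale animal 3 lay 1.45-fold above the other two, a log2 deviation of 0.54 with a counting error of 0.00942. Animal 3 was highest and animal 2 lowest under TMM, DESeq2 size factors, library totals and the authors' normalized signal. miR-24-5p had 583, 432 and 498 counts, or 135.4, 91.8 and 125.8 CPM, with animal 2 lowest. The authors' deposited table paired 8 of the 9 members with a human miRNA of the same name and gave none for miR-24-5p.

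A chi-square test of homogeneity, which sets the counts of the 3 libraries against counting error, called all 9 members different between libraries at an adjusted p under 0.05 (Benjamini-Hochberg). It called 80.6% of the 391 miRNAs tested, so the count says little about the members. Without animal 3 it called 7 of 9 members and 59.2% of the 400 miRNAs then tested, and the 2 members no longer called were miR-27a-5p and miR-27b-5p. By size, 3 of 9 members had a span of over 2-fold, the highest animal over the lowest, against 39.9% of all tested. The spans were 5.76-fold for miR-23b-3p, 4.68-fold for miR-23a-3p and 3.54-fold for miR-27a-5p. The spans of the other 6 members ran from 1.23-fold to 1.63-fold. Without animal 3, 0 of 9 members and 8.75% of all tested spanned more than 2-fold, and the widest member was miR-23b-5p at 1.63-fold.

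The low values gathered in 1 library. In animal 3, 3 members had a log2 deviation no higher than -1, against 16.9% of all tested, and 2 one no higher than -2, against 6.65%. Counted from the lowest of the 391 miRNAs, miR-23b-3p was 15th and miR-23a-3p 25th in animal 3. The median deviation of the 9 members in animal 3 was -0.12, and that of all tested was -0.01. In animals 1 and 2, 0 members had a log2 deviation no higher than -1, against 5.37% and 1.79% of all tested.

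**Figure D3:**
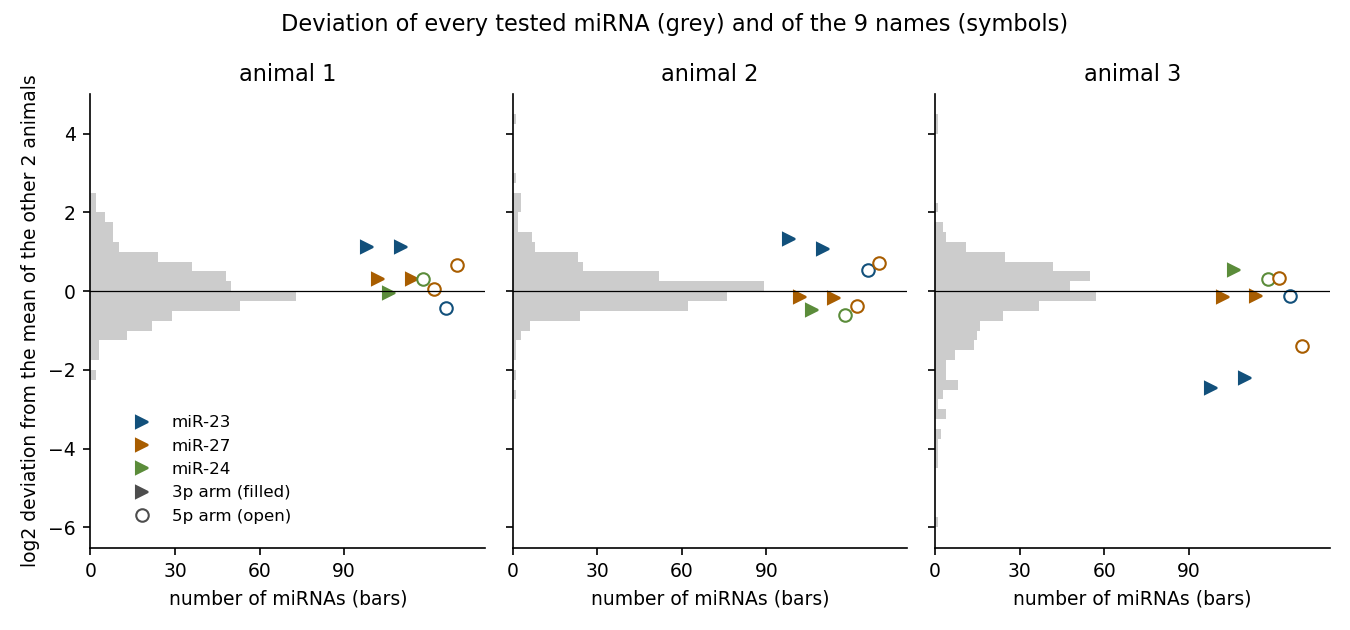
Log2 deviation of each animal from the mean of the other 2 (vertical axis, TMM-scaled CPM + 1), with all 391 tested miRNAs as grey bars (number of miRNAs, horizontal axis) and the 9 members as symbols set side by side. In animal 3 the filled blue symbols of miR-23b-3p and miR-23a-3p lie at -2.46 and -2.21, while the filled symbols of miR-27 and miR-24 lie between -0.15 and 0.54.

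Ratios between names of a library need no scaling between libraries. Within the clusters, miR-23a-3p exceeded miR-27a-3p 1.42-fold and 1.74-fold in animals 1 and 2, and made 0.368 of its level in animal 3. miR-23b-3p exceeded miR-27b-3p 1.15-fold and 1.55-fold in animals 1 and 2, and made 0.269 of its level in animal 3. In both clusters miR-23 was thus the more abundant partner in animals 1 and 2 and the less abundant in animal 3. Against miR-24-3p the change was wider still. The log2 ratio of miR-23b-3p over miR-24-3p was 1.24, 1.67 and -1.55 in animals 1, 2 and 3, and that of miR-23a-3p over miR-24-3p was 0.44, 0.70 and -2.18. The reads of miR-24-3p can come from either cluster, so these ratios mix its copies.

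The ratio of miR-27 to miR-24 was nearly equal in animals 1 and 2. miR-27b-3p over miR-24-3p was 2.06 and 2.05 in animals 1 and 2 and 1.27 in animal 3. miR-27a-3p over miR-24-3p was 0.959, 0.938 and 0.600 in animals 1, 2 and 3. Between animals 1 and 2 neither pair passed the chi-square test of 2 names by libraries, with adjusted p of 0.584 and 0.0631. Under the other alternatives both pairs passed it. With all 3 animals this test called all 6 pairs of cluster partners, as it did 100% of the 44 pairs tested in the 24 clusters listed for comparison. Without animal 3 it called 4 of 6 pairs of members and 75.0% of all pairs. In animal 3, 4 of the 6 pairs shifted by more than 2-fold from the mean of the other two, against 36.4% of all pairs, and each of these 4 held a miR-23 name. The 6 pairs share names and are not independent.

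**Figure D4:**
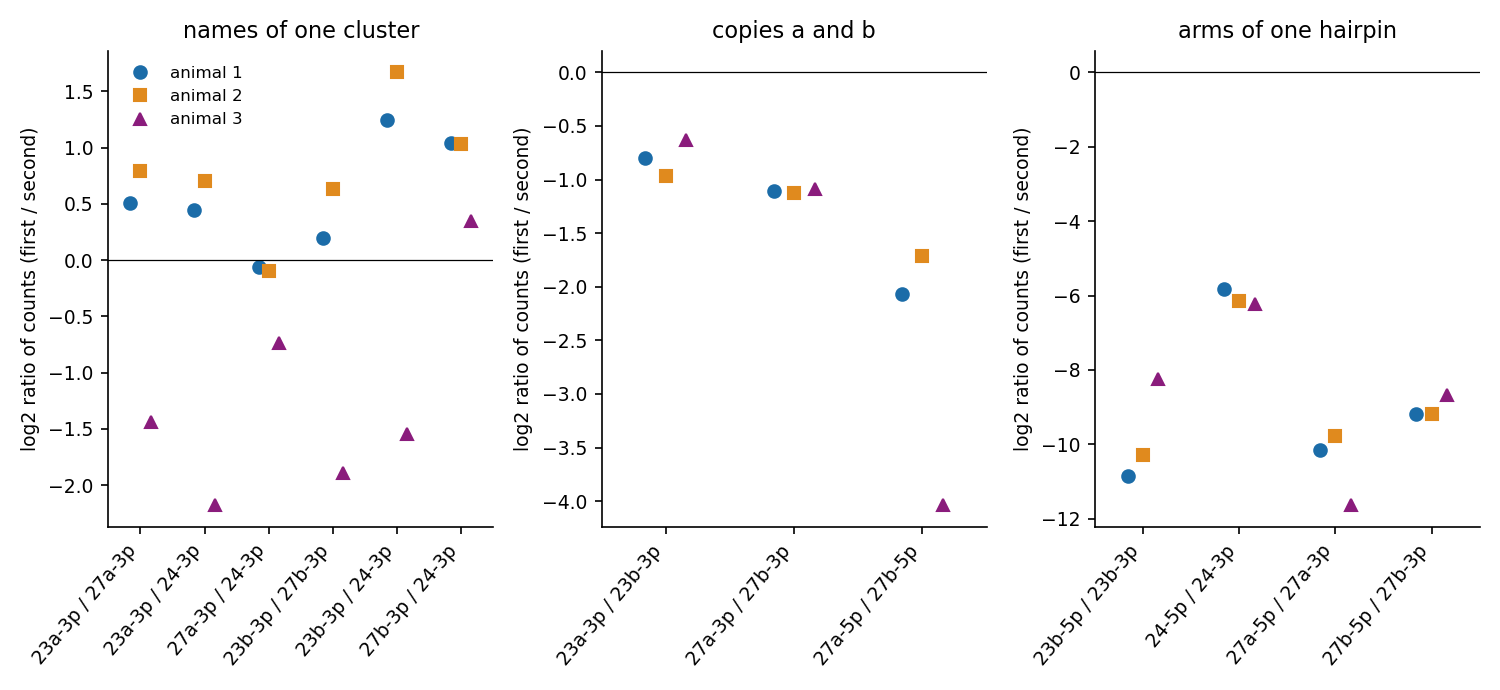
Log2 ratio of counts (first name over second, vertical axis) within each library for cluster partners, for copies a and b, and for the arms of a hairpin, with a symbol per animal. The triangles of animal 3 lie apart in the 4 pairs of miR-23 with miR-27 or miR-24, down to -2.18, and close to the other symbols for the 3p copies, at -0.63 for miR-23 and -1.08 for miR-27.

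The log2 ratio of copy a over copy b shifted by 0.25 for miR-23-3p and 0.03 for miR-27-3p in animal 3, where that of miR-23 over its miR-27 partner shifted by -2.09 in the a cluster and -2.31 in the b cluster. miR-23a-3p made 36.5%, 33.9% and 39.2% of the miR-23 3p counts in animals 1, 2 and 3. miR-27a-3p made 31.8%, 31.4% and 32.1% of the miR-27 3p counts, with Wilson 95% intervals of 31.5 to 32.0, 31.1 to 31.7 and 31.7 to 32.4. Copy b was the more abundant in all 3 animals for both miRNAs. The log2 ratio of a over b was -0.80 ± 0.17 (SD, n = 3) for miR-23 and -1.11 ± 0.02 for miR-27. Reads too short to reach a base that tells the copies apart could be counted under either name, in a way the files do not state.

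Summed over arms, miR-23b and miR-27b had 1.91, 2.04 and 1.97 times the counts of miR-23a and miR-27a in animals 1, 2 and 3, a mean of 1.97 ± 0.0638 (SD, n = 3). This sum leaves out miR-24 and hides its parts: the ratio of b over a was lowest in animal 3 both for miR-23-3p (1.74, 1.95 and 1.55) and for miR-27-3p (2.15, 2.19 and 2.12), and miR-27 made more of the sum there. The chi-square test called 3 of 3 pairs of copies, against 72.9% of the 48 pairs of copies tested over all families. Its adjusted p was 0.0247 for the miR-27 3p pair, with a range of 0.00787 to 0.256 over the alternatives, and 0.000674 for the miR-27 5p pair, with a range of 0.000145 to 0.546. Without animal 3 it called 1 of 3, the miR-23 3p pair, against 47.9%. The 5p pair was the least even: miR-27a-5p made 19.3% and 23.4% of the miR-27 5p counts in animals 1 and 2 and 5.74% in animal 3, where it rested on 7 counts. This pair alone shifted by more than 2-fold in animal 3, against 31.2% of the pairs tested.

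Hairpins were paired by name. In all 4 with both arms listed the 3p arm was the more abundant in every library, as it was in 40.2% of 122 hairpins. The miR-24 pair is not a ratio within a single hairpin, since the reads of miR-24-3p can come from either copy. Among these hairpins miR-27a ranked 3rd in its excess of 3p over 5p, miR-23b 6th, miR-27b 8th and miR-24 14th. The 3p arm of miR-23b exceeded the 5p arm 1863-fold and 1250-fold in animals 1 and 2 and 303-fold in animal 3. For miR-27a the excess was 1132-fold, 872-fold and 3185-fold in animals 1, 2 and 3. The ratios of these hairpins thus moved in opposite directions in animal 3. In miR-23b the 3p arm was low with the 5p arm near its level in animal 1, and in miR-27a the 5p arm was low with the 3p arm near its level in animal 2.

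In the other hairpins the excess of the 3p arm spanned less between animals. It was 582-fold, 583-fold and 411-fold for miR-27b, and 56.7-fold, 71.1-fold and 74.6-fold for miR-24, in animals 1, 2 and 3. The chi-square test of arms by libraries called 4 of 4 hairpins, against 67.2% of all tested. With Benjamini-Hochberg adjustment over the 122 hairpins, p was 2.9e-21 for miR-23b, 2.5e-05 for miR-24, 0.00799 for miR-27a and 0.0162 for miR-27b. Without animal 3 it called 1 of 4, miR-24 with an adjusted p of 0.0016, against 33.6% of all tested. The adjusted p of miR-23b was then 0.09, the highest of its alternatives, and that of miR-24 reached 0.564 without animal 1. In animal 3, 2 of 4 hairpins, miR-23b and miR-27a, shifted by more than 2-fold, against 41.8% of all tested.

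Other miRNAs known from vessel growth were read for comparison from a list of 13 miRNAs with 19 names. The list took 6.11%, 5.23% and 5.06% of the counts in animals 1, 2 and 3. The homogeneity test called 16 of 19 names, and 5 spanned more than 2-fold, beside 80.6% and 39.9% of all tested. In animal 3, 3 of 19 names had a log2 deviation no higher than -1, beside 16.9% of all tested, and 0 had one of 1 or more. The median deviation of the list in animal 3 was 0.00, beside -0.01 for all tested. miR-126, the miRNA most characteristic of endothelium, had 49842, 39923 and 40778 CPM in animals 1, 2 and 3 and a deviation of 0.00 in animal 3. The 3 low names were miR-221-3p at -2.23, miR-130a-3p at -2.42 and miR-296-5p at -1.21.

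The names outside the set that were most like miR-23b-3p over the 3 libraries were found among 252 miRNAs averaging 100 or more counts. Likeness was the root mean square distance of log2(TMM-scaled CPM + 1) after centring each name on its own mean. miR-221-3p was nearest at 0.168, with 9277, 9334 and 1592 counts in animals 1, 2 and 3. miR-130a-3p followed at 0.18, with 804, 1360 and 154 counts, and miR-30b-3p at 0.196, with 161, 152 and 24 counts. For all 3 the library of animal 3 was the low one. Within the set, miR-23a-3p lay at 0.136 from miR-23b-3p, whereas its cluster partner miR-27b-3p lay at 1.103 and miR-24-3p at 1.425. With 3 libraries this measure reflects mainly the deviation of animal 3.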

How the data were processed

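Small RNA libraries came from 25 to 30 mg of frozen kidney cortex per animal, 5 µg of total RNA being enriched for small RNA and 12 ng of it used for the library, per the labels' protocols. The deposited raw counts are whole-number read counts per mature miRNA, mapped by the authors with 0 mismatches to M. fascicularis miRNAs, per the file headers. The smallest sum over the 3 libraries was 15. The aligner, the miRNA release and the treatment of reads that fit several names are not given in the sources used here. The deposited normalized signal was made by the authors with edgeR, per the file headers. It equals the count multiplied by 1 factor per library (0.989, 0.951 and 1.06 for animals 1, 2 and 3) and served only as an alternative. These factors match the inverses of the TMM factors given below, so the signal is not corrected for library totals. No other columns of per-sample values were present.

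Sample groups came from the labels, and replicate numbers from the titles. CPM was computed over the listed counts (1000000 scale), and TMM factors (1.01, 1.05 and 0.940) with edgeR 4.0.16 in R 4.3.3. A floor of 3 counts is 0.697, 0.637 and 0.758 CPM in animals 1, 2 and 3. Depth was 3957188 to 4707892 counts per library. Reads carry no molecular identifiers, so Wilson 95% intervals (scipy 1.17.1), counting errors and floors cover counting error only. The counting error of a deviation was computed from counts without the 1 added before the log, so it is only approximate for rare names. Chi-square tests (homogeneity against TMM effective sizes, mean count of at least 10, or 2 names by libraries, combined mean count of at least 10 for arms and copies) were adjusted by Benjamini-Hochberg over all miRNAs or pairs tested at a threshold of 0.05. They compare 3 libraries and not conditions. They were tried on simulated counts that held only counting error and planted changes. That trial does not cover other spread between animals. Alternatives were DESeq2 1.42.0 size factors, library totals, other count minimums, subsampling to the smallest library and leaving out each animal. Named miRNAs are all 9 members, the 3 nearest in pattern, and the fixed lists of cell markers and vessel growth miRNAs. The listed names miR-378a, miR-122a and miR-124a stood for miR-378, miR-122 and miR-124. The members and lists were chosen with earlier results of these data known.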

Additional observations from a re-analysis of the deposited data

How the results depend on the processing

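Of 42 recalculated values of the comparison results, 37 stayed within 1.5 times the count, or for the share within 1 SD between animals. The exceptions were 4 values without animal 3 and the share with another denominator. Leaving out each animal in turn gave 0 to 3 members spanning more than 2-fold (3 with all animals), 1 to 4 hairpins with a called arm balance (4 with all), 1 to 3 called pairs of copies (3 with all), and 5 to 8 neighbouring pairs in a constant order (5 with all). The extreme of each range was the value without animal 3, and copies numbered 2 pairs without animal 2. A constant order over fewer animals is easier to meet by construction. The share of the set ranged from 4.49% to 5.86% when an animal was left out. Leaving out 1 of 3 values moves a mean by less than 1 SD by construction, so these values could not leave the limit. The share was 9.78% when the 10 most abundant miRNAs were taken out of the denominator, which shrinks it by construction. All 36 recalculated levels of single members stayed within 1 SD. Those without an animal could not do otherwise, for the same reason as the share. Scaling by library totals moved the median deviation of all tested miRNAs in animal 3 to -0.14. The authors' normalized signal, which is not corrected for library totals, moved it to -0.19. A single factor per library moves every miRNA alike before 1 is added to the level. The position of an abundant member relative to that median is thus fixed by construction. For rare names the added 1 matters. In animal 3 miR-27a-5p lay at -1.38 relative to the median under TMM and at -1.67 under the authors' normalized signal. The homogeneity test called 6 to 9 of 9 members over its alternatives. Leaving out animal 1 ended the call of miR-27b-3p (adjusted p 0.954) and miR-23b-5p (0.111), and leaving out animal 2 ended that of miR-24-5p (0.452), miR-23b-5p (0.39) and miR-27b-5p (0.179). Depth limits the 5p arms: miR-27a-5p rests on 7 counts in animal 3. No paired analysis was possible because there is only 1 group of animals.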
